A study of Mus musculus with 28 samples.

Results

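The insulin-like growth factor axis was described through 10 genes chosen by symbol: the binding proteins Igfbp2, Igfbp3, Igfbp4, Igfbp5, Igfbp6 and Igfbp7, the ligands Igf1 and Igf2, and the receptors Igf1r and Igf2r. All 10 were found among 56691 genes of the bulge table, 47243 genes of the hair germ table made with SHERRY2 and 57010 genes of the hair germ table made with SMART-seq. The set was picked because Igfbp2 and Igfbp3 differed in opposite directions between genotypes in the bulge, so the bulge values of the 10 genes are given as a description, without a test. The hair germ libraries were tested, although the genes were chosen with earlier results of these data known.

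The cells were hair follicle stem cells sorted by flow cytometry from mouse skin at postnatal day 69, from Alkbh5 conditional knockout (cKO) mice and from wild-type (WT) mice. Alkbh5 encodes an enzyme that removes the m6A mark from RNA. The bulge is the resting stem cell niche of the follicle, and the hair germ is the smaller cluster of progenitors beneath it. Each of 3 datasets held 2 cKO and 2 WT libraries: bulge cells from 200 ng of RNA by SHERRY2, a tagmentation method, and hair germ cells from 40 ng of RNA by SHERRY2 and, in a separate batch, by SMART-seq, a full-length cDNA method. The labels and other sources used here give no strain, sex, Cre driver or sort markers. The labels call the libraries of a group separate mice. The 16 m6A libraries of the 28 samples were not analysed here.

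Alkbh5 checked the genotype labels. It stood at 4.45 and 2.52 CPM (counts scaled to the library's reads in genes) in the bulge cKO libraries, against 98.9 and 92.1 CPM in the bulge WT libraries. By SHERRY2 in the hair germ it stood at 17.7 and 6.90 CPM in cKO, against 62.8 and 61.4 CPM in WT. By SMART-seq it stood at 84.8 and 105 CPM in the libraries labelled cKO, against 132 and 95.3 CPM in those labelled WT, so there the groups overlapped and the genotype was not visible in the deleted gene's own counts; whether those reads come from the deleted part of the gene cannot be seen in a count per gene. Reads in genes per library ranged between 14676168 and 21187283 in the bulge, between 9001396 and 14416601 in the SMART-seq set, and between 488648 and 2317407 in the hair germ SHERRY2 set, where WT mouse 2 was the shallowest. Keratinocyte markers summed to between 24438 and 28835 CPM in the bulge libraries, and bulge stem cell markers, of which Krt15 and Col17a1 made up the most, to between 11544 and 13435 CPM. Hair germ markers such as Lgr5, Lef1 and Cdh3 summed to between 309 and 377 CPM in the bulge libraries, to between 558 and 958 CPM in the SMART-seq libraries, and to 641 and 109 CPM in hair germ SHERRY2 cKO against 128 and 227 CPM in WT. Cdh3 gave 164 to 205 CPM of the sum in the bulge libraries, and stood at 116 and 34.1 CPM in hair germ SHERRY2 cKO against 36.4 and 36.8 CPM in WT. Lef1 lay the other way, at 0.858 to 3.12 CPM in the bulge and 6.90 to 71.4 CPM in the hair germ SHERRY2 libraries, and the bulge marker Cd34 stood at 145 to 388 CPM in the bulge and 10.8 to 51.2 CPM in the hair germ SHERRY2 libraries. By SMART-seq Lef1 stood at 8.78 to 26.9 CPM, and Cd34 at 96.3 to 446 CPM, which overlapped the bulge. The whole bulge list summed to between 6144 and 9048 CPM in the hair germ SHERRY2 libraries. By SMART-seq it summed to between 6297 and 11833 CPM, which overlapped the bulge. Tcf7l2 of that list was higher in the hair germ. It stood at 26.7 to 30.7 CPM in the bulge, 44.9 to 95.7 CPM by SHERRY2 and 122 to 160 CPM by SMART-seq. Sox9 stood at 60.7 to 124 CPM in the bulge and 520 to 673 CPM by SMART-seq. Lgr5 stood at 31.9 to 75.8 CPM in the bulge, 10.8 to 89.1 CPM in the hair germ by SHERRY2 and 92.7 to 184 CPM by SMART-seq. Xist and the Y-linked Ddx3y marked bulge WT mouse 2 as male and the other bulge libraries as female. In the SMART-seq set they marked mouse 1 of each label as female and WT mouse 2 as male. SMART-seq cKO mouse 2 carried both, with Ddx3y at 69.0 CPM and Xist at 64.1 CPM, against 70.5 and 7.61 CPM in WT mouse 2. In the hair germ SHERRY2 set cKO mouse 1 had Ddx3y at 21.6 CPM and Xist at 20.97 CPM, while the other 3 libraries had Ddx3y at 0 and Xist at 166 to 311 CPM.

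Insulin-like growth factors are secreted peptides that act through the tyrosine kinase receptor Igf1r, which signals by way of insulin receptor substrates to PI3K, AKT and mTOR. Most of the ligand outside cells is held by binding proteins, which can keep it from the receptor or, after cleavage by proteases, release it. In skin, Igf1 is known as a product of the dermal papilla that favours growth of the follicle, while the epithelium carries the receptors and makes several binding proteins.

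The 250 bases upstream of the RefSeq transcript start are shown for Igfbp2 and Igfbp3, the pair that differed in opposite directions in the bulge, since their promoters can be read side by side. They come from the RefSeq promoter table of build GRCm38.p6, at chr1:72824230-72824479 on the plus strand for Igfbp2 and chr11:7213924-7214173 on the minus strand for Igfbp3, written 5′ to 3′ along the gene's strand. Capitals mark matches, on either strand, to the GC box GGGCGG and to the TATA motif TATANA.
Igfbp2: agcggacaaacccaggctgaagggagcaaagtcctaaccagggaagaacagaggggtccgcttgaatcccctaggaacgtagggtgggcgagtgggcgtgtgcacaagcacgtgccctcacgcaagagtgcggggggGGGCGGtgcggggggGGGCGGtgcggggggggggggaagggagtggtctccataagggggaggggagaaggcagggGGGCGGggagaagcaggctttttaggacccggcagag
Igfbp3: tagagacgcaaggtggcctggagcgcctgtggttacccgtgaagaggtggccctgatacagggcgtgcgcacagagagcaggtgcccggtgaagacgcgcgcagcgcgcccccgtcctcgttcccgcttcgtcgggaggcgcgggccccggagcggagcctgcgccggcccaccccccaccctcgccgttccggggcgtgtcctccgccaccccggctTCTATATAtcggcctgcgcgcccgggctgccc
The Igfbp2 window held 3 GC boxes, whose first bases lay 113, 98 and 37 bases upstream, and no TATA match. The Igfbp3 window held 2 TATA matches that overlapped each other, beginning 32 and 30 bases upstream, and no GC box. The match at 32 bases fits TATANA on the opposite strand only, and the match at 30 bases fits it on both strands. GC content was 67.2% for Igfbp2 and 73.2% for Igfbp3, against a median of 52.4% over 32851 promoter windows. Of all these windows 22.6% held TATANA and 32.7% held GGGCGG. Neither of the windows shown held CCAAT or TGANTCA, the core letters of the CCAAT box and the AP-1 motif, which 33.8% and 6.75% of all windows held. Igfbp2 has 2 RefSeq start sites, of which the upstream one is shown. The window of the other, at chr1:72825137-72825386, had a GC content of 56.4%, 0 GC boxes, 0 TATA matches and 1 TGANTCA match.

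Igfbp2 encodes a binding protein that can also attach to integrins. In the bulge it was near the bottom of the members in WT and in the middle of them in cKO. Its reads numbered 135 and 398 in cKO, against 22 and 10 in WT. In RPKM, which is CPM divided by the exon length in kilobases, Igfbp2 stood at 4.79 and 10.9 in bulge cKO, against 0.562 and 0.369 in bulge WT. Both cKO libraries lay above both WT libraries, and the cKO mice differed from each other by more than the WT mice did. The ratio of mean levels was 16.8, cKO over WT, and the log2 fold change of the edgeR model, which scales libraries by the trimmed mean of M values (TMM), was 3.86 with a standard error of 0.52. In bulk samples such a difference in RNA cannot be told apart from a difference in the number of cells that carry it.

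Igfbp3, the main carrier of these ligands in blood, was the most abundant member by RPKM in every bulge library. It stood at 37.7 and 22.2 RPKM in bulge cKO, against 234 and 213 RPKM in bulge WT, or 1803 and 1375 reads against 15527 and 9769. The WT libraries lay close together and far above both cKO libraries. Its mean level was 7.46-fold lower in cKO, with a log2 fold change of -3.07 and a standard error of 0.27. Immune markers such as Cd74 and H2-Aa also differed in the bulge, at 71.3 and 42.1 CPM summed over 7 genes in cKO against 187 and 147 CPM in WT, with 2 of the 5 tested lower at an adjusted p under 0.05. Pericyte and smooth muscle markers summed to 115 and 110 CPM in cKO against 62.2 and 69.5 CPM in WT, with none of the 4 tested called. Notch3 alone gave 106.6 and 102.9 CPM of that sum in cKO against 56.5 and 65.3 CPM in WT. Endothelial markers stayed between 0.786 and 3.03 CPM in cKO and between 1.77 and 3.73 CPM in WT, and fibroblast markers between 18.8 and 36.1 CPM in cKO and between 31.6 and 42.8 CPM in WT. The fibroblast marker Vim was called lower, at 11.3 and 7.17 CPM in cKO against 24.6 and 22.2 CPM in WT, as was Krtdap among markers of differentiated epidermis, at 200.0 and 192 CPM in cKO against 300 and 287 CPM in WT. The part of these cells in the values of Igfbp2 and Igfbp3 was not tested.

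**Figure D1:**
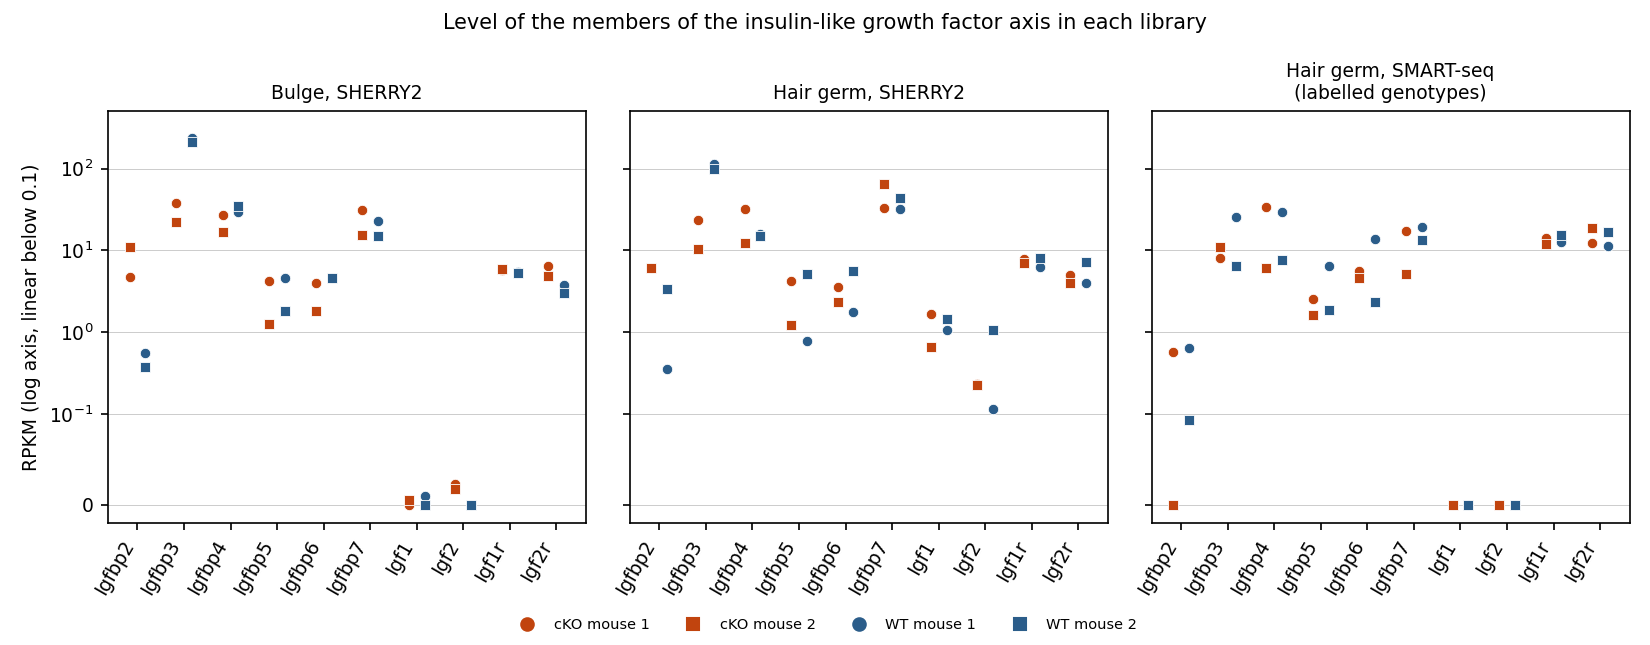
Level in RPKM, on a log axis that is linear below 0.1, of each of the 10 genes in each library of the 3 datasets; every point is 1 library, cKO left of WT. In the bulge and in the hair germ by SHERRY2 the cKO points of Igfbp2 lie above and those of Igfbp3 below the WT points; by SMART-seq the points of both genes overlap or interleave.

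The other binding proteins differed less in the bulge. Igfbp4, which the protease Pappa cleaves, stood at 27.2 and 16.6 RPKM in cKO, against 29.6 and 34.9 RPKM in WT, and its groups did not overlap (log2 fold change -0.73, standard error 0.23). Igfbp6, which binds Igf2 in preference to Igf1, stood at 4.00 and 1.82 RPKM in cKO, against 4.54 and 4.60 RPKM in WT, with cKO mouse 2 well below the other 3 libraries (log2 fold change -0.83, standard error 0.47). Igfbp5, a binding protein held by the extracellular matrix, stood at 4.27 and 1.27 RPKM in cKO, against 4.54 and 1.79 RPKM in WT. For Igfbp5 the mouse number separated the libraries more than the genotype did. Its level was 25.7 to 27.3 CPM in the libraries of mice numbered 1 and 7.62 to 10.8 CPM in those numbered 2. Igfbp7, a low-affinity relative, stood at 30.9 and 15.5 RPKM in cKO, against 23.0 and 14.9 RPKM in WT, and its groups overlapped as well. It too lay apart by mouse number, at 27.8 to 37.4 CPM in mice numbered 1 and 18.0 to 18.7 CPM in those numbered 2. Igfbp5 and Igfbp7 were 2 of the 8 tested members, and 25.2% of all 15672 genes tested did not overlap by number. The bulge stem cell markers Cd34 (388 and 145 CPM in cKO, against 228 and 231 CPM in WT), Lhx2 (120 and 46.4 CPM in cKO, against 89.3 and 80.7 CPM in WT) and Cd200 (79.4 and 31.8 CPM in cKO, against 84.4 and 101.5 CPM in WT) were also lowest in cKO mouse 2, the library lowest in Igfbp4, Igfbp5 and Igfbp6. So were Sox9, Nfatc1, Tcf7l2 and Foxc1 of the same list. The rest of that list was not: Krt15 was lowest in cKO mouse 1, at 5011 CPM against 5207 CPM in cKO mouse 2. Col17a1 and Fgf18 were lowest in WT mouse 2, at 4528 and 2.52 CPM, against 5885 and 4.19 CPM in cKO mouse 2. The same library, cKO mouse 2, was also the bulge library lowest in Igfbp3, at 22.2 RPKM against 37.7 RPKM in cKO mouse 1. It was the highest in Igfbp2, at 10.9 RPKM against 4.79 RPKM in cKO mouse 1. The part of these markers in the values of the members was not tested.

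Of the 8 members that passed the filter on low counts in the bulge, 6 had groups that did not overlap in CPM, 3 with cKO higher and 3 with cKO lower. Over all 15672 genes tested there, 54.4% did not overlap (38.9% with cKO higher and 15.5% with cKO lower), and 3.04% passed an adjusted p of 0.05 in edgeR's quasi-likelihood test (1.44% higher and 1.6% lower). Scaling the bulge libraries by their totals alone moved the median of all genes to 0.16 on the log2 scale, against -0.01 with TMM, and the called genes to 590 higher and 219 lower, against 225 higher and 251 lower. The directions of Igfbp2, Igfbp3, Igfbp4 and Igfbp6 were the same under both scalings.

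Igfbp3 made up most of the binding protein RNA in bulge WT. As a share of the summed RPKM of Igfbp2 to Igfbp7, it was 34.6% and 32.5% in cKO, against 79.0% in each WT library. Igfbp2 held 4.39% and 16.0% of that sum in cKO, against 0.190% and 0.137% in WT. The sum itself was 109 and 68.2 RPKM in cKO, against 296 and 269 RPKM in WT. Igfbp4 and Igfbp7 took a larger share in cKO: Igfbp7 held 28.4% and 22.7% in cKO, against 7.75% and 5.53% in WT, although its RPKM overlapped between the genotypes. The ratio of Igfbp3 to Igfbp2 RPKM was 7.88 and 2.04 in cKO, against 416 and 576 in WT.

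**Figure D2:**
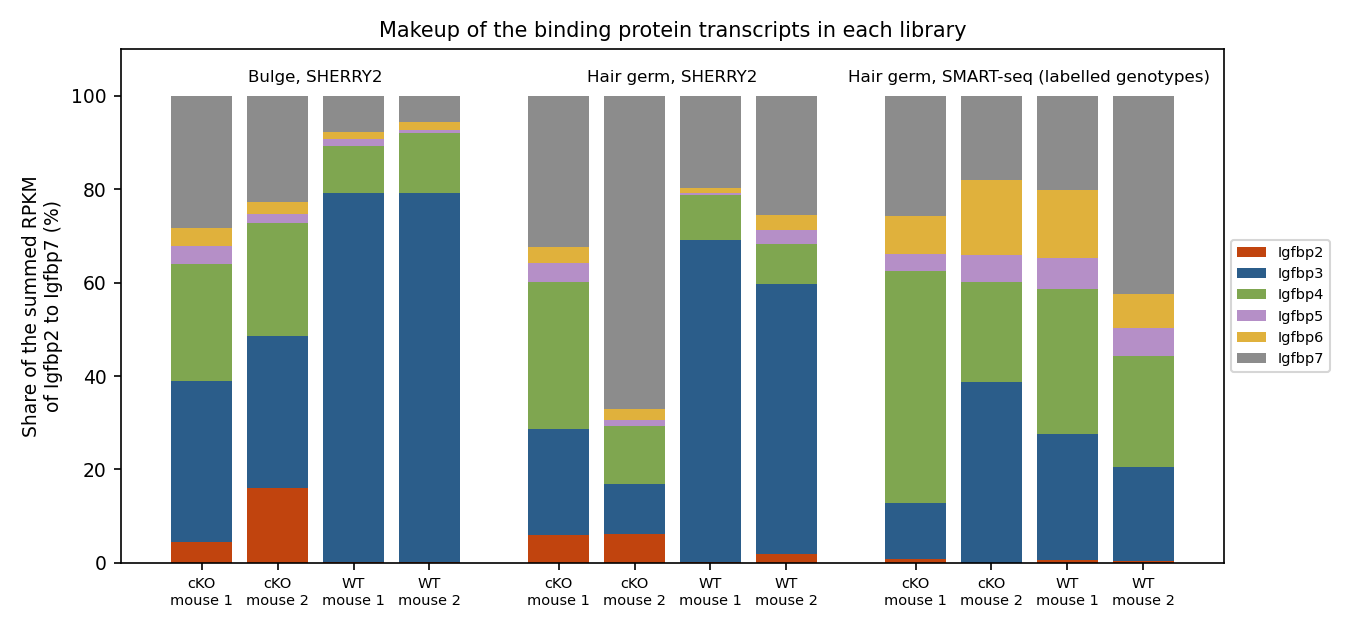
Share, in percent, of each binding protein in the summed RPKM of Igfbp2 to Igfbp7, with 1 stacked bar for each library and cKO left of WT in each dataset. Igfbp3 takes 79.0% in each bulge WT library and 32.5% to 34.6% in the bulge cKO libraries, and 57.9% to 68.8% in hair germ SHERRY2 WT against 10.6% to 22.7% in cKO.

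In the hair germ SHERRY2 libraries Igfbp2 and Igfbp3 had the same directions as in the bulge, but neither passed the test across all genes. Igfbp2 had 12.5 and 21.2 normalized counts in cKO, against 0.978 and 4.74 in WT, which correspond to 17 and 26 reads against 1 and 3. All cKO values lay above all WT values, though the WT level rested on 4 reads in all. On the log2(normalized count + 1) scale Igfbp2 was 2.36 higher in cKO (standard error 0.62, limma, adjusted p = 0.441). No member passed in any alternative that kept every library. The lowest adjusted p of Igfbp2 among these was 0.677, in limma with the mouse number as a block. Leaving out WT mouse 2, the shallowest library, brought the log2 fold change to 3.13. That fit left WT with 1 library, which held 1 read of Igfbp2 and was assumed to vary like cKO.

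Igfbp3 had 81.4 and 61.2 normalized counts in hair germ SHERRY2 cKO, against 523 and 242 in WT. The WT libraries stood far apart from each other and still above both cKO libraries. The difference was -2.32 on the same log2 scale (standard error 0.87, limma, adjusted p = 0.97). In edgeR's quasi-likelihood test on reads recovered from the normalized counts it was -2.63 (standard error 0.75, adjusted p = 0.0986). Over the alternatives its adjusted p ran between 0.0539 and 1.0, so Igfbp3 passed in none of them. The authors' deposited table lists a log2 fold change of -2.42 for Igfbp3 with a p-value of 0.000279 and an adjusted p of 0.9997, and 2.67 for Igfbp2 with an adjusted p of 0.9997. The Wald scores listed beside them have the opposite sign, at 3.63 for Igfbp3 and -2.16 for Igfbp2. The normalized counts of both genes go in the direction of the listed fold changes.

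These were the 2 of 10 members whose groups did not overlap in the hair germ SHERRY2 set, where 32.8% of all 38953 genes tested did not overlap (16.4% in each direction) and limma called 0.0077% of them. The count test on recovered reads called 0.377% of 16707 genes, and 0 of the 8 members it tested, which left out Igfbp6 and Igf2. Alkbh5 itself did not pass in limma (log2 fold change -1.98, adjusted p = 0.724) and did in that count test (log2 fold change -2.31, adjusted p = 0.00993). The Igfbp3 share of the summed binding protein RPKM was 22.7% and 10.6% in cKO, against 68.8% and 57.9% in WT. That share is computed from the same Igfbp3 values and adds no separate evidence. Igfbp7 was the most abundant binding protein in both hair germ SHERRY2 cKO libraries at 33.1 and 65.3 RPKM, against 32.3 and 44.0 RPKM in WT. Igfbp4 stood at 32.2 and 12.2 RPKM in cKO, against 15.9 and 14.8 RPKM in WT. Neither gene passed in limma, at a log2 fold change of 0.74 (adjusted p = 0.97) for Igfbp7 and 0.81 (adjusted p = 0.97) for Igfbp4. Igfbp5 and Igfbp6 had at most 39 reads in a library, and their groups overlapped. Summed markers of differentiated epidermis were uneven in this set, at 2573 and 4311 CPM in cKO against 13418 and 2263 CPM in WT; their part in the values of Igfbp3 was not tested.

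In the SMART-seq hair germ libraries 0 of the 8 members that passed the filter had groups that did not overlap, against 23.9% of 17547 genes tested, and 0 passed the test. Igfbp3 stood at 25.6 and 34.6 CPM in the libraries labelled cKO, against 80.3 and 20.2 CPM in those labelled WT. The highest and the lowest value both came from the WT label, and the log2 fold change of -0.78 (standard error 0.66, edgeR, adjusted p = 1.0) turned to 0.58 without WT mouse 1. Igfbp2 had 14 and 0 reads in the libraries labelled cKO, against 17 and 2 in those labelled WT, so that number 1 of each label held nearly all of them. In the whole table edgeR's quasi-likelihood test called 0 genes, with a share called of 0%; 179 genes lay at an unadjusted p under 0.05, and DESeq2 called 0 as well.

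Within the SMART-seq set several members differed by mouse number, though Igfbp3 did not. Igfbp4 stood at 148 and 27.2 CPM in mouse 1 and mouse 2 labelled cKO, against 130 and 33.6 CPM in mouse 1 and mouse 2 labelled WT, so that the mean of the libraries numbered 1 was 4.58 times that of the libraries numbered 2. Igfbp5, Igfbp6 and Igfbp7 also had both libraries numbered 1 above both numbered 2. Igf2r went the other way, at 106 to 114 CPM in the libraries numbered 1 and 158 to 173 CPM in those numbered 2. In all, 6 of the 8 tested members had libraries that did not overlap by number, against 43.1% of the 17547 genes. Melanocyte markers summed to 26.2 and 26.5 CPM in the libraries numbered 1 (cKO and WT by label), against 176 and 131 CPM in those numbered 2, and Krt10 of differentiated epidermis stood at 369 and 337 CPM against 117 and 51.0 CPM. Their part in the members' values was not tested. Ddx3y was found only in the libraries numbered 2 of this set, so number and the presence of Ddx3y coincide and cannot be told apart.

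**Figure D3:**
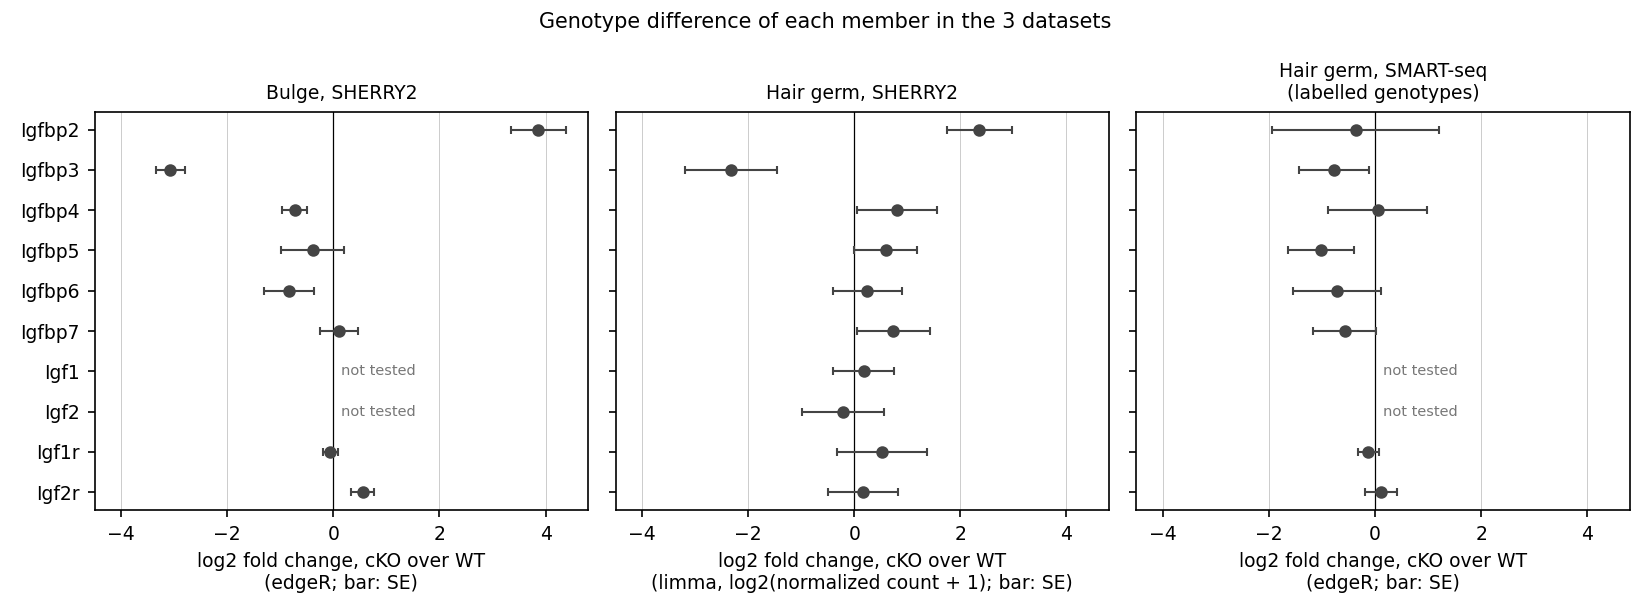
Log2 fold change, cKO over WT, of each of the 10 genes in the 3 datasets, with bars of 1 standard error; bulge and SMART-seq values come from edgeR and hair germ SHERRY2 values from limma on log2(normalized count + 1). Igfbp2 at 3.86 and Igfbp3 at -3.07 stand apart in the bulge, and the same pair has 2.36 and -2.32 in the hair germ by SHERRY2; Igf1 and Igf2 were not tested in the bulge or by SMART-seq.

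The ligand genes had at most 2 reads in any bulge or SMART-seq library. Igf1, the growth factor made by mesenchyme, had 0 and 1 reads in bulge cKO, against 2 and 0 in bulge WT, and 0 reads in all SMART-seq libraries. Igf2, the ligand that prevails before birth, had 2 and 2 reads in bulge cKO, against 0 and 0 in bulge WT, and 0 reads in all SMART-seq libraries. A count of 0 in the SMART-seq libraries allows up to 3 reads, or at most 0.333 CPM in the shallowest of them, by counting error alone. The dermal papilla markers Sox2 and Alx4 were at 0 in the bulge too, while that list summed to 16.8 and 16.6 CPM in cKO against 22.7 and 23.4 CPM in WT. Rspo3 alone gave 13.2 and 14.1 CPM of the sum in cKO against 20.7 and 21.5 CPM in WT.

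Igf1 in the hair germ SHERRY2 libraries had 25 and 15 reads in cKO, against 16 and 7 in WT, and Igf2 had 2 and 3 reads in cKO, against 1 and 3 in WT. These libraries held reads over most genes that skin cells do not use: of 1704 olfactory and vomeronasal receptor genes, 1623 and 1569 had a read in cKO, against 1570 and 1476 in WT, while in the bulge 53 and 44 of 1769 did in cKO, against 50 and 38 in WT. At the mean read density of those receptor genes, a transcript as long as Igf1 would have 22.3 and 15.3 reads in cKO, against 15.1 and 11.4 in WT. The Igf1 counts lay at or near that density and those of Igf2 below it, and both are read as background. Igfbp2 at that density would have 4.16 and 2.86 reads in cKO, against 2.81 and 2.12 in WT, so its 17 and 26 reads in cKO exceeded it while its 1 and 3 reads in WT were at about that level. Igfbp5 in WT mouse 1 was at that level too, with 7 reads against 9.14. Neither ligand passed in limma (Igf1 log2 fold change 0.17, adjusted p = 0.983; Igf2 log2 fold change -0.21, adjusted p = 0.983).

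The receptors were present in every library. Igf1r, the signalling receptor, stood at 5.73 and 5.88 RPKM in bulge cKO, against 5.48 and 5.25 RPKM in bulge WT. The groups did not overlap in CPM, but the log2 fold change was -0.06 (standard error 0.14) with TMM and 0.11 on library totals, so its direction rested on the scaling. Hair germ levels were 7.88 and 7.09 RPKM in SHERRY2 cKO, against 6.18 and 8.04 RPKM in WT, and 14.1 and 11.9 RPKM in the SMART-seq libraries labelled cKO, against 12.8 and 15.2 RPKM in those labelled WT. Both hair germ sets overlapped, with log2 fold changes of 0.53 (limma, adjusted p = 0.978) and -0.13 (edgeR, adjusted p = 1.0).

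Igf2r, which takes Igf2 to the lysosome and also carries mannose 6-phosphate enzymes, stood at 6.53 and 4.79 RPKM in bulge cKO, against 3.78 and 3.04 RPKM in bulge WT. Both cKO libraries were above both WT libraries, at a log2 fold change of 0.55 (standard error 0.21). Hair germ levels were 4.998 and 3.94 RPKM in SHERRY2 cKO, against 3.98 and 7.26 RPKM in WT, and 12.2 and 18.6 RPKM in the SMART-seq libraries labelled cKO, against 11.3 and 17.0 RPKM in those labelled WT. The groups overlapped in both, and neither log2 fold change, 0.17 (limma, adjusted p = 0.987) and 0.11 (edgeR, adjusted p = 1.0), passed. Igf2r overlaps the antisense gene Airn, Igfbp7 overlaps Polr2b on the other strand, and no source used here states the strand setting of the counting, so reads of these genes may be shared. The same holds for Igf1 with Igf1os and for Igf2 with Mir483, Igf2os and Gm49394.

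By mean RPKM the order of the highest members was Igfbp3, Igfbp7 and Igfbp4 in bulge cKO, at 29.9, 23.2 and 21.9, and Igfbp3, Igfbp4 and Igfbp7 in bulge WT. In bulge cKO the ranges of these 3 genes overlapped (Igfbp3 at 22.2 to 37.7, Igfbp4 at 16.6 to 27.2 and Igfbp7 at 15.5 to 30.9 RPKM), whereas in bulge WT Igfbp3 at 213 to 234 RPKM lay clear of Igfbp4 at 29.6 to 34.9 RPKM, and Igfbp4 clear of Igfbp7 at 14.9 to 23.0 RPKM. Below them in bulge cKO came Igfbp2, Igf1r and Igf2r, which overlapped one another, and then Igfbp6 and Igfbp5, which overlapped each other and lay below those receptors. In bulge WT the same places were held by Igf1r at 5.25 to 5.48 RPKM, Igfbp6 at 4.54 to 4.60, Igf2r at 3.04 to 3.78, Igfbp5 at 1.79 to 4.54 and, last, Igfbp2, and of these only Igf2r and Igfbp5 overlapped as neighbours.

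In the bulge table the members lie on 7 chromosomes, and Igfbp2 at 72863662 to 72891633 on the plus strand of chromosome 1 is followed 5457 bases further by Igfbp5 at 72897091 to 72914043 on the minus strand. The neighbours differed in behaviour: Igfbp2 separated the genotypes in the bulge and Igfbp5 did not. Igfbp3 lies at 7156086 to 7163923 on the minus strand of chromosome 11. The table does not name its build, and these positions differ from the GRCm38.p6 positions of the promoters.

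Beyond the members, 54 other genes of the pathway were looked up, from insulin to FOXO factors. In the bulge 45 of them were tested, and 1 passed an adjusted p of 0.05, or 2.22% of the list against 3.04% of all genes tested. This was Irs2, an insulin receptor substrate that couples Igf1r and the insulin receptor to PI3K. It stood at 42.0 and 30.1 CPM in bulge cKO, against 116 and 95.4 CPM in bulge WT. The cKO libraries lay below the WT libraries with a wide gap, and Irs2 fell by 1.73 on the log2 scale (standard error 0.21, edgeR, adjusted p = 0.00893). Its adjusted p ran between 1.43e-15 and 0.0236 over 8 alternatives, of which 4 leave a group with 1 library that is assumed to vary like the other group. In the hair germ Irs2 stood at 70.1 and 24.6 CPM in SHERRY2 cKO, against 73.4 and 92.1 CPM in WT (log2 fold change -0.53, limma, adjusted p = 0.975), and at 159 and 154 CPM in the SMART-seq libraries labelled cKO, against 174 and 97.7 CPM in those labelled WT (log2 fold change 0.18, edgeR, adjusted p = 1.0). Irs2 was followed into the hair germ because of its bulge value, and the difference between the cell types was not tested.

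The remaining 44 tested genes of the bulge did not pass, 11 genes of the list in all (24.4%, against 18.9% of all genes tested) lay at an unadjusted p under 0.05, and the median log2 fold change of the list was -0.09, against -0.01 over all genes. Among proteases of the binding proteins and their inhibitors, Pappa, which cleaves Igfbp4, stood at 7.53 and 7.07 CPM in cKO, against 13.1 and 10.8 CPM in WT (log2 fold change -0.89, edgeR, adjusted p = 0.133). Adamts1, a secreted metalloprotease, stood at 52.4 and 44.2 CPM in cKO, against 114 and 51.4 CPM in WT, and its groups overlapped (log2 fold change -0.96, edgeR, adjusted p = 0.182). Stc2, a secreted inhibitor of Pappa chosen here after its values were seen, stood at 0.196 and 0.454 CPM in cKO, against 2.03 and 0.613 CPM in WT, with 12 reads in cKO and 52 in WT (log2 fold change -2.17, edgeR, adjusted p = 0.243). All 4 tested genes of that role had a negative log2 fold change with TMM and 3 of 4 on library totals, with medians of -0.93 and -0.75. Over all genes 48.9% had a positive log2 fold change with TMM, and the medians were -0.01 with TMM and 0.16 on library totals. Pik3r1, the regulatory subunit of PI3K, stood at 185 and 104 CPM in cKO, against 345 and 149 CPM in WT (log2 fold change -0.96, edgeR, adjusted p = 0.258). Its groups overlapped, since WT mouse 2 lay between the cKO libraries.

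The forkhead factors, which AKT holds out of the nucleus, did not pass. Foxo4 stood at 50.7 and 44.7 CPM in bulge cKO, against 57.3 and 70.5 CPM in bulge WT (log2 fold change -0.59, edgeR, adjusted p = 0.111). Foxo1 stood at 89.8 and 66.1 CPM in bulge cKO, against 162 and 64.7 CPM in bulge WT, and its groups overlapped. In the mTOR branch 6 of 8 genes had a positive log2 fold change under both scalings, against 48.9% of all genes with TMM, and none passed. The medians were 0.30 with TMM and 0.47 on library totals, against -0.01 and 0.16 over all genes. The 2 other genes of the branch were negative. Rheb, the GTPase that switches mTORC1 on, had -0.50 (edgeR, adjusted p = 0.156), and Eif4ebp1, the translation brake that mTORC1 releases, had -0.55 (edgeR, adjusted p = 0.228). Stat5b, a transducer of growth hormone, had -0.50 (edgeR, adjusted p = 0.159).

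H19, the noncoding RNA that shares its imprinted locus with Igf2, stood at 1.90 and 2.37 CPM in bulge cKO, against 0.519 and 0.545 CPM in bulge WT (log2 fold change 1.82, edgeR, adjusted p = 0.168). Its groups did not overlap, and Igf2 itself had 4 reads in all in cKO and 0 in WT. Of the receptors outside the set, the insulin receptor Insr stood at 71.5 and 68.4 CPM in bulge cKO, against 66.7 and 62.5 CPM in bulge WT, with a log2 fold change of -0.06 with TMM (edgeR, adjusted p = 0.875) and 0.11 on library totals. The ligand and binding protein genes Ins1, Ins2, Igfbp1 and Igfbpl1 had too few reads in the bulge to be tested.

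**Figure D4:**
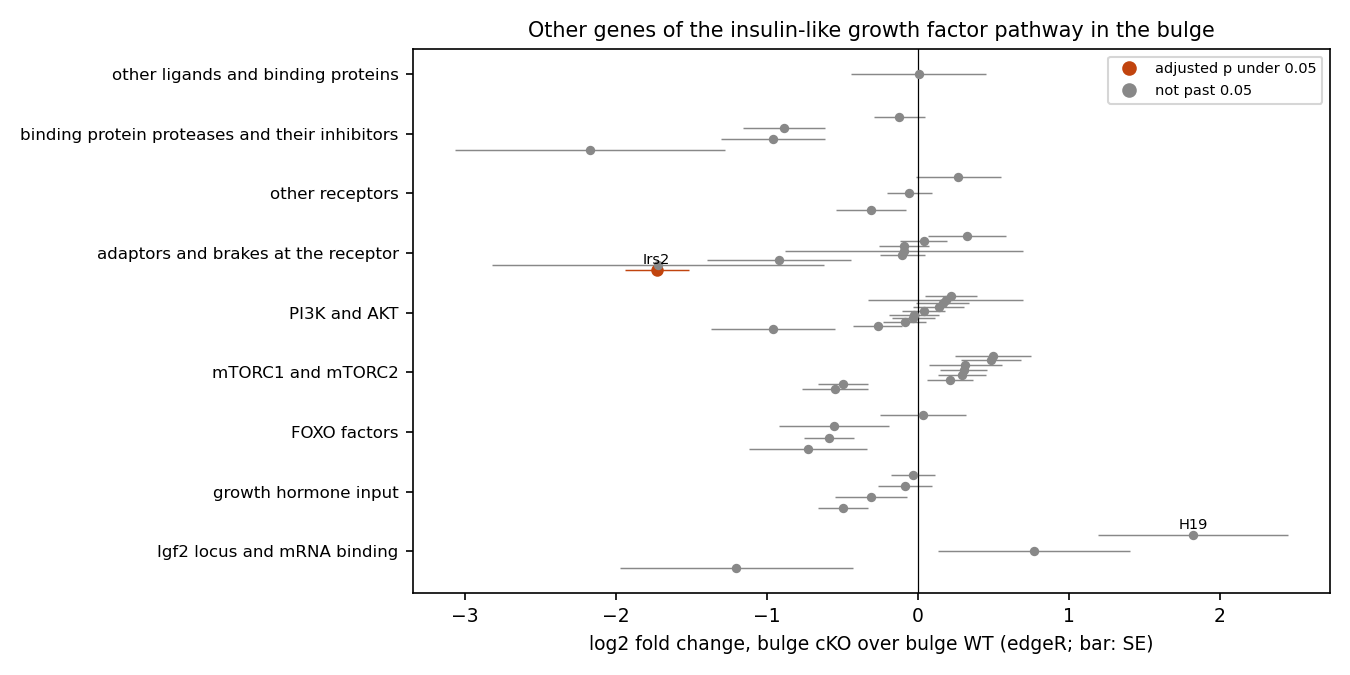
Log2 fold change, bulge cKO over bulge WT, of the 45 tested genes of the wider pathway by role, each point 1 gene with a bar of 1 standard error from edgeR. Irs2 at -1.73 is the gene past an adjusted p of 0.05; H19 at 1.82 lies farthest to the right and does not pass.

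Of the pathway genes in the hair germ, 0 of 53 tested passed in the SHERRY2 set by limma and 0 of 49 by the count test on recovered reads, with 1 at an unadjusted limma p under 0.05 (Igfals, log2 fold change 1.44, adjusted p = 0.97). The median log2 fold change of the list was 0.20, against 0.06 over all genes. In the SMART-seq set 0 of 45 passed by edgeR or DESeq2, with 1 at an unadjusted p under 0.05, and the median was -0.03, against -0.02 over all genes. That gene was Htra1, a serine protease that can cleave binding proteins, at 64.5 and 44.3 CPM in the libraries labelled cKO, against 126 and 110 CPM in those labelled WT (log2 fold change -1.14, edgeR, adjusted p = 1.0). In the hair germ SHERRY2 libraries Htra1 lay the other way, at 668 and 519 CPM in cKO, against 237 and 272 CPM in WT (log2 fold change 1.65, limma, adjusted p = 0.97).

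Genes whose pattern was most like that of Igfbp2 and of Igfbp3 were ranked by Pearson's r of log2(CPM + 1) over the 12 libraries, each dataset centred on its own mean, among 8407 genes. The libraries of a dataset share their depth and batch, and the bulge contrast weighs in every r, so the values are a description. For Igfbp3 the first 5 were Tiparp (0.97), Arid5a (0.96), Ccnl1 (0.95), Ifrd1 (0.95) and Klf11 (0.94). Tiparp averaged 38.6 CPM in bulge cKO, against 146 CPM in bulge WT, and Arid5a 34.6 CPM in cKO, against 145 CPM in WT. For Igfbp2 the first 5 were Phtf1 (0.95), Ppp2r5d (0.95), Tnfrsf10b (0.94), Brms1l (0.94) and Rev1 (0.93). Tnfrsf10b, a death receptor, averaged 52.7 CPM in bulge cKO, against 11.7 CPM in bulge WT, while Phtf1 averaged 88.4 CPM in cKO, against 62.1 CPM in WT.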

How the data were processed

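RNA-seq was used for 12 libraries, 2 cKO and 2 WT in each of 3 datasets. The authors deposited raw counts per gene for the bulge and SMART-seq libraries, with FPKM and exon lengths for the bulge per the file headers. For the hair germ SHERRY2 libraries they deposited a signal of normalized counts with a log2 fold change, a Wald score and p-values. Per the submitters' processing notes, STAR, featureCounts and DESeq2 were among the tools and GRCm38, mm10 and GRCm39 among the builds; no source used here gives versions, annotation or strand setting.

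The normalized counts were whole multiples of 1 step per library, with size factors of 0.632 to 1.36, and gave whole reads for 100% of values within 0.01. CPM and RPKM were computed from reads in genes and the exon lengths of the bulge table; RPKM differed by at most 0.139% from the authors' FPKM over members with 100 reads or more. Counts were tested with edgeR 4.0.16 (quasi-likelihood, filterByExpr, TMM) in R 4.3.3, and normalized counts with limma 3.58.1 on log2(value + 1) after a mean of at least 1. DESeq2 1.42.0 was an alternative. P-values were adjusted over all genes tested by Benjamini-Hochberg at 0.05. With 2 libraries per group a single-gene permutation test cannot go below 0.333. The tests were also run on simulated counts with the same fixed spread for every gene, which cannot show how they perform on these libraries. The bounds given for 0 counts cover counting error only, at 3 reads.

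The members and the pathway and marker lists were chosen with earlier results of these data known. Pathway genes were named if they passed or were among the 2 of lowest p in their role, and the text gives those that matter; Insr, and Irs2 in the hair germ, were added after their values were seen. All 10 members had a promoter in the RefSeq table.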

Additional observations from a re-analysis of the deposited data

Results flagged for a closer look

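Genes of the wider pathway whose libraries, in CPM for the bulge and SMART-seq and in normalized counts for the hair germ SHERRY2 set, separated the genotypes one way in one dataset and the opposite way in another are given by their log2 fold changes, cKO over WT; none of these differences between datasets was tested. Eif4ebp1 had -0.55 in the bulge and 1.34 in the hair germ by SHERRY2. H19 had 1.82 in the bulge and -0.49 in the hair germ by SHERRY2, where it had 12 reads in cKO and 11 in WT and its groups overlapped in CPM. Irs1 had 0.32 in the bulge, -0.31 in the hair germ by SHERRY2 and -0.32 by SMART-seq. In the hair germ SHERRY2 set Irs1 had 38 reads in cKO and 30 in WT, and its groups also overlapped in CPM. The reads of H19 and Irs1 in that set were not compared with the density over olfactory and vomeronasal receptor genes. Foxo4 had -0.59 in the bulge and 0.23 in the hair germ by SMART-seq. Htra1 had 1.65 in the hair germ by SHERRY2 and -1.14 by SMART-seq, the same cell type by label, in libraries whose Alkbh5 counts separated the genotypes in the SHERRY2 set and not in the SMART-seq set. No member of the axis was among them.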

How the results depend on the processing

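Igfbp2 stayed higher and Igfbp3 lower in cKO under every alternative run on the bulge and on the hair germ SHERRY2 libraries. Leaving out 1 library at a time gave log2 fold changes of 3.15 to 4.36 for Igfbp2 and -3.48 to -2.75 for Igfbp3 in the bulge, and of 1.42 to 3.89 for Igfbp2 and -2.92 to -1.76 for Igfbp3 in the hair germ SHERRY2 set, where 0 to 1 members passed. The edgeR fits without 1 library of that set were added after the data had been seen. The number of bulge pathway genes past an adjusted p of 0.05 was 1 and became 4 without the filter on low counts, 2 with the mouse number as a replicate block (Irs2 and Pik3r1), and 2 to 5 without 1 library, with 5 when cKO mouse 1 was left out. In the SMART-seq set 1 pathway gene (Htra1, adjusted p = 0.0344) passed without the filter.

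Signs changed for members whose groups overlapped, and for Igf1r in the bulge, whose groups did not overlap in CPM. Its log2 fold change was -0.06 with TMM and 0.11 on library totals. Without 1 library in the bulge, the log2 fold change ran between -1.48 and 0.47 for Igfbp5 and between -0.45 and 0.52 for Igfbp7. Without 1 library, the hair germ SHERRY2 ranges were -0.49 to 1.59 for Igfbp5, -0.025 to 0.52 for Igfbp6, -0.24 to 1.60 for Igfbp7, -0.45 to 0.45 for Igf1, -0.98 to 0.56 for Igf2 and -0.16 to 0.37 for Igf2r. The count test on recovered reads gave -0.058 for Igf1 and -0.13 for Igf2r. In the SMART-seq set the ranges were -6.04 to 1.60 for Igfbp2, -1.46 to 0.58 for Igfbp3, -1.60 to 1.39 for Igfbp4, -1.65 to 0.16 for Igfbp5, -1.48 to 1.13 for Igfbp6, -1.67 to 0.034 for Igfbp7 and -0.25 to 0.41 for Igf2r, and the replicate block gave -0.076 for Igfbp4. The cause was not tested.

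The labels do not say that equal numbers pair mice. Deviations of equal numbers correlated at -0.072 in the bulge, 0.230 in the SMART-seq set and -0.464 in the hair germ SHERRY2 set, and the block changed no call of a member there. Exon lengths from another annotation were not tried. In hair germ SHERRY2 WT mouse 2, 3 reads are 6.14 CPM.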
